A study of Mus musculus with 92 samples.

Results

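The core circadian clock genes of mouse skeletal muscle were described over 92 animals of 1 group. The members were taken by name: Dbp, Tef, Nr1d1, Nr1d2, Per1, Per2, Per3, Cry1, Cry2 and Clock, which are 10 of the 13441 genes in the table, and all 10 were found. Bmal1, listed in older annotations as Arntl, is not a member and served as an outside anchor. The animals were DOz mice, which are outbred, so the animals differed genetically from one another. They were 18 to 20 weeks old, had eaten standard chow throughout life, and gave quadriceps muscle for poly(A)-selected RNA sequencing from 500 ng of RNA. The labels give no treatment contrast and no hour of sampling, so no rhythm or phase was measured directly. What could be measured is how the clock transcripts varied from animal to animal and which of them varied together.

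The mammalian clock is a transcriptional loop. CLOCK and BMAL1 form a dimer that binds E-box elements and drives the Per, Cry, Nr1d and Dbp genes. PER and CRY proteins return to the nucleus and repress that dimer. The NR1D1 and NR1D2 proteins, also called REV-ERB alpha and beta, repress Bmal1, Cry1, Npas2 and Nfil3 through RORE elements, which the ROR receptors activate. DBP and TEF are transcription factors of the PAR bZIP family that activate D-box elements, and NFIL3 represses the same elements. In skeletal muscle the loop runs within the fibres and times glucose and lipid use, and Bmal1 is high when the transcripts driven by E-boxes are low.

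The elements named above were searched in the members' own promoters, as background to the loop. Whether the matches go with the results below was not tested. RefSeq promoter windows of build GRCm38.p6, running from 250 bases before to 50 after each transcription start, were matched for 9 of the 10 members and for Bmal1, with the exception of Per2. The E-box was searched as CACGTG, which stood in 7.15% of all 32851 windows. The D-box was searched as TTATGNAA, which stood in 3.38%, and the RORE as TAGGTCA, which stood in 2.61%, each on both strands. The 3 motifs do not overlap in the stretches below, where the capitals mark each match.

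Per1 held an E-box at -166 and a D-box at -24 from the start of its first window (chr11:69098758-69098947, plus strand), upstream of the exon that begins there:
Per1: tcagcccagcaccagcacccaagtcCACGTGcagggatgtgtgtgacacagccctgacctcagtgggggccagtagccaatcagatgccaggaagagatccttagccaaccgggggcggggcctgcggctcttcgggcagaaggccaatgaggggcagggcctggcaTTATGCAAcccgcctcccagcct
Per3 held a pair of D-boxes with the same letters, at -205 and -158 (chr4:151044791-151044895, minus strand):
Per3: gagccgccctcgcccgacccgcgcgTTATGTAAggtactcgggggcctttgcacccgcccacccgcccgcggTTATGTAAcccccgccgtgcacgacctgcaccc
Cry1 held an E-box at -60 (chr10:85185084-85185139, minus strand):
Cry1: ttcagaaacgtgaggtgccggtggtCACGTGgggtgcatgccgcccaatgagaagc
Tef held an E-box at -138 of its second start (chr15:81811251-81811306, plus strand):
Tef: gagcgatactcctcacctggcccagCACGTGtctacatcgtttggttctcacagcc
Bmal1 held a RORE at 30 of its second start, within an annotated exon (chr7:113207531-113207557, plus strand):
Bmal1: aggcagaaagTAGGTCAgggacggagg
The other Tef window held a further E-box at -127, within an annotated exon. The windows of Dbp, Nr1d1, Nr1d2, Cry2 and Clock held none of these letters. A match is a description of letters, not a measured binding site, and elements outside these windows were not searched.

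Values are given in log2 units as deposited, so 1 unit is a doubling of the level. The linear values of a sample summed to between 898071 and 1140761, with a median of 1006085, close to what CPM values give, and the sample medians lay between 3.43 and 3.55 log2 units. Read depth is unknown from these values. The fast-fibre myosin Myh4 averaged 15.90 ± 0.24 (SD, n = 92), and this gene marks the fast fibres that make up most of the quadriceps. Markers of other cells were present throughout: the summed linear level of 10 macrophage markers ran from 51.1 to 749 on that scale, of 10 adipocyte markers to 1672 with a median of 504, and of 5 blood markers from 176 to 25249. Each animal is 1 biological sample. In bulk tissue, fewer cells of a type and less RNA per cell cannot be told apart.

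The 2 partners of the positive limb differed in spread. Clock, the DNA-binding partner of BMAL1, lay at 4.39 in the lowest animal, 5.26 at the median and 5.82 in the highest, with a mean of 5.27 ± 0.26 (SD, n = 92). Bmal1 ran from 3.95 through 5.18 to 5.88, with a mean of 5.18 ± 0.42. From lowest to highest, Clock therefore spanned 2.68-fold and Bmal1 3.81-fold.

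The period genes, which encode the PER repressors, were widely spread. Per2 ran from -0.18 through a median of 2.55 to 4.63, a 28.1-fold span, with a mean of 2.41 ± 0.96. Per1, which responds directly to glucocorticoid and cAMP signals as well as to the clock, ran from 2.31 through 3.81 to 5.94, a 12.3-fold span, with a mean of 3.87 ± 0.95. Per3 ran from 2.33 through 4.06 to 5.27, a 7.69-fold span, with a mean of 4.06 ± 0.52. The lowest Per3 animal stood apart, 0.60 log2 units below the next. The cryptochromes, the other repressors, were narrower. Cry1 ran from 3.12 through 3.95 to 4.79, with a mean of 3.92 ± 0.34. Cry2 ran from 4.14 through 4.80 to 5.56, with a mean of 4.80 ± 0.29.

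Both REV-ERB genes were abundant. Nr1d1 ran from 5.51 through 7.60 to 8.39, with a mean of 7.52 ± 0.39. Its lowest animal lay 1.03 log2 units below the next lowest at 6.54, so the fits on Nr1d1 were repeated without that animal. Nr1d2 ran from 5.81 through 6.68 to 7.35, with a mean of 6.68 ± 0.28. The 2 PAR bZIP factors were opposites in spread. Dbp, a direct output of CLOCK and BMAL1, ran from 2.39 through 4.71 to 6.72, a 20.1-fold span, with a mean of 4.68 ± 0.92. Tef ran only from 7.23 through 7.61 to 8.19, a 1.94-fold span, with a mean of 7.64 ± 0.21.

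**Figure D1:**
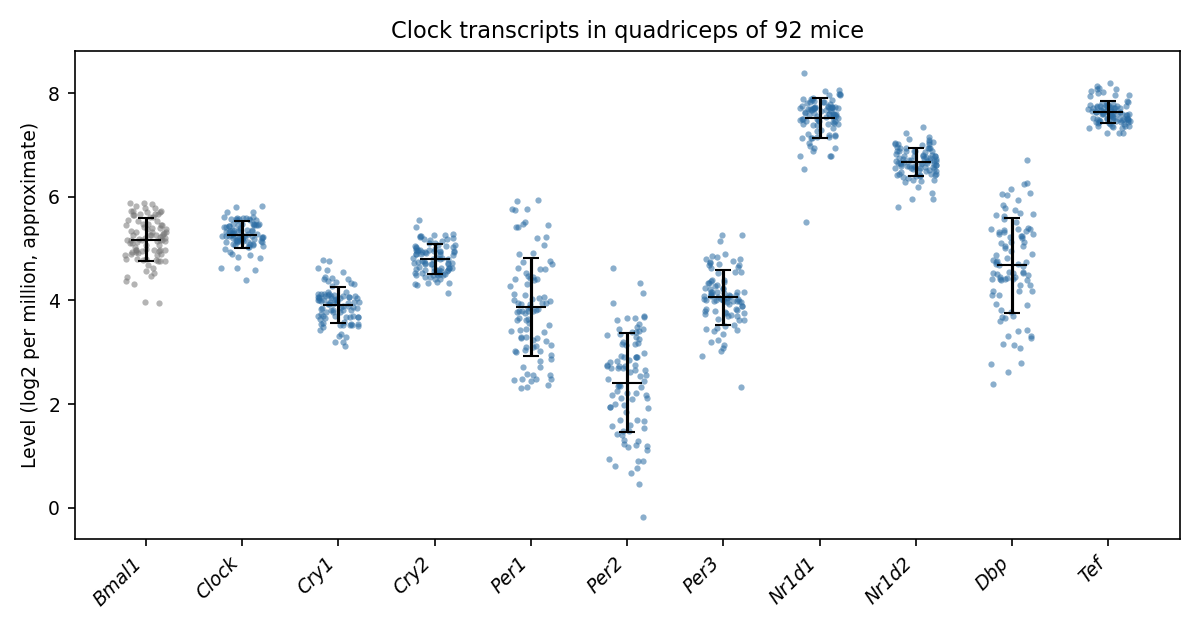
Level of Bmal1 (grey) and the 10 members (blue) in log2 units, 1 point an animal (n = 92), with the mean and SD in black. Per1, Per2 and Dbp are spread over 3 or more log2 units, while Tef stays between 7.23 and 8.19.

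Spread on a log scale depends on level, so each gene's SD was set against the trend of SD on mean over all genes. The excess is the log2 ratio of the 2. It was 1.93 for Dbp, 1.82 for Per1, 1.37 for Per2, 1.01 for Per3 and 0.88 for Nr1d1, which placed these 5 at the 99.1, 98.9, 97.2, 94.1 and 92.3 percentiles of all genes. The anchor Bmal1 had 0.86, at the 91.9 percentile. It was smaller for Nr1d2 at 0.38, Cry1 at 0.37, Cry2 at 0.27 and Clock at 0.19, and Tef lay on the trend. In all, 9 of the 10 members lay above the trend, beside 48.1% of all genes. The median excess was 0.63 for the members and -0.03 for all genes.

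Levels were compared between genes per kilobase of merged exon length, on the log2 scale. Nr1d1 was highest at 5.90, followed by Tef at 4.66, Nr1d2 at 4.24, Dbp at 3.10, Bmal1 at 2.26, Cry1 at 2.18, Cry2 at 2.14, Clock at 1.49, Per1 at 1.38, Per3 at 0.80 and Per2 at -0.14. Nr1d1 exceeded Tef in 91 of 92 animals, and Tef exceeded Nr1d2 in 92. Neighbours that did not differ beyond their spread were Bmal1 and Cry1, with a mean difference of 0.09 ± 0.39 (SD over animals), Cry1 and Cry2 with 0.04 ± 0.48, and Clock and Per1 with 0.11 ± 1.06. The differences of Dbp over Bmal1, 0.83 ± 1.24, and of Per1 over Per3, 0.58 ± 0.95, were also smaller than their SD. Merged exon length counts every annotated exon, so genes with long alternative exons are placed too low.

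In the GENCODE annotation of build mm10, Nr1d1 (ENSMUSG00000020889) lies at chr11:98767932-98775333 on the minus strand, and its exons overlap in part those of Thra on the opposite strand. Dbp (ENSMUSG00000059824) lies at chr7:45705088-45710203 on the plus strand and shares 539 exonic bases with Sphk2. Tef overlaps Gm17597, Cry2 overlaps D930015M05Rik and Bmal1 shares 33 exonic bases with Gm45355, each on the opposite strand. Whether the counting used strand is not given in the sources used here, so reads from these shared stretches cannot be assigned with certainty.

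The level of Bmal1 ordered most of the clock. A slope is the change in a gene's log2 level for 1 SD of the predictor over the 92 animals, fitted with limma for every gene and adjusted over the whole table by the Benjamini-Hochberg method. A gene was called at an adjusted p under 0.05. On Bmal1, 6.94% of all 13440 genes tested were called, 4.22% rising and 2.72% falling. Of the members, 9 of 10 were called, 2 rising and 7 falling. The median size of slope was 0.15 for the members and 0.04 for all genes tested.

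Among the members that fell as Bmal1 rose, Dbp had the steepest slope, -0.62 ± 0.07 (SE; adjusted p = 2.97e-10). Per2 followed at -0.52 ± 0.08 (adjusted p = 1.32e-05), Per3 at -0.37 ± 0.04 (adjusted p = 5.61e-12) and Per1 at -0.34 ± 0.09 (adjusted p = 0.0133). These are the 4 members with the widest spread. The slopes of Nr1d2 at -0.11 ± 0.03 (adjusted p = 0.00413), Cry2 at -0.10 ± 0.03 (adjusted p = 0.0134) and Tef at -0.09 ± 0.02 (adjusted p = 0.000972) were smaller and also called. Cry1, a repressor that is itself held down by REV-ERB, rose with Bmal1 by 0.16 ± 0.03 (adjusted p = 0.000321). Clock rose by 0.13 ± 0.02 (adjusted p = 0.000304). Nr1d1 had a slope of 0.08 ± 0.04 (adjusted p = 0.245) and was not called. In the reverse fits, with each member as predictor, Bmal1 was called on 8 of these 9 called members, and not on Cry2 (adjusted p = 0.0731) or Nr1d1 (adjusted p = 0.289).

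The calls of Per1 and Cry2 on Bmal1 were lost when the blocks of title numbers described below were a covariate and when the 2 animals with the most extreme Bmal1 were left out. In that order, the slope was -0.25 and -0.31 for Per1 and -0.07 and -0.09 for Cry2. Per1's call was also lost with 7 marker scores as covariates (slope -0.25, adjusted p = 0.123). Clock's call was lost with the first 3 principal components of the table as covariates (slope 0.07, adjusted p = 0.0903).

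**Figure D2:**
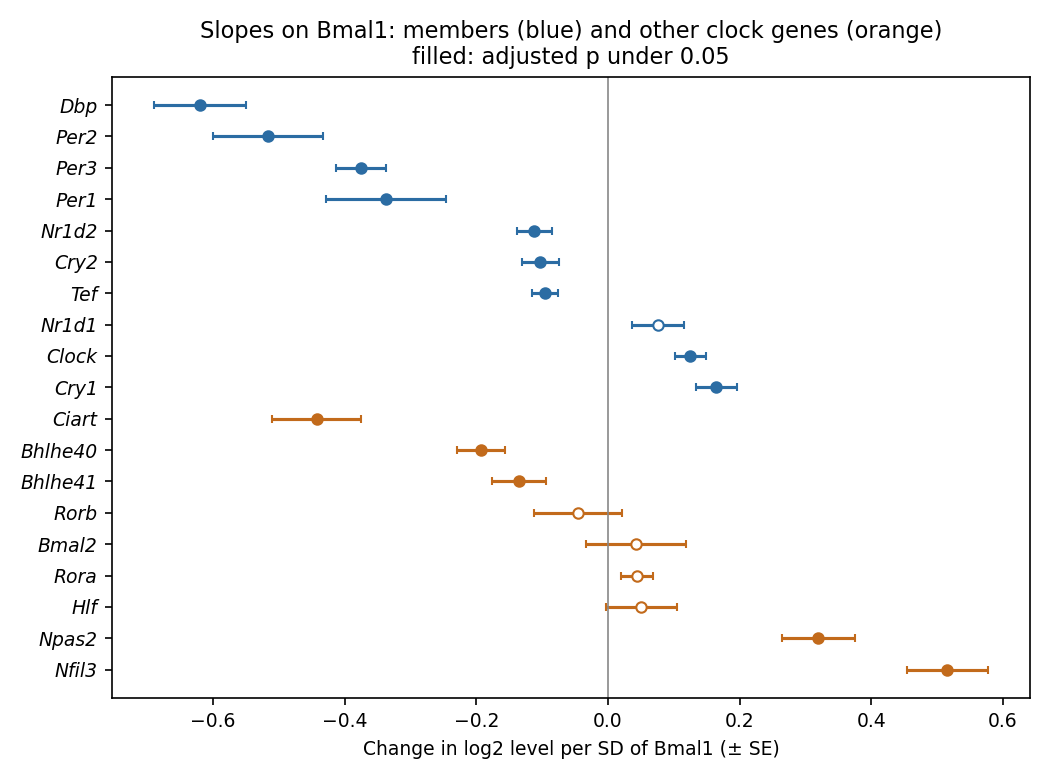
Slope on Bmal1 with its SE for the 10 members (blue) and 9 other clock genes (orange), n = 92 animals. Filled points passed an adjusted p of 0.05: Dbp, Per2, Per3 and Ciart lie far to the left, Npas2 and Nfil3 to the right, and Nr1d1 is open near 0.

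The animals at the ends of the Bmal1 and Dbp ranges showed part of this order. The animal with the highest Bmal1, at 5.88, was the lowest of 92 for Dbp at 2.39, for Per2 at -0.18 and for Per3 at 2.33, and the second highest for Clock at 5.81. Its Nr1d1 was 7.66, near the middle. The animal with the lowest Bmal1, at 3.95, had the third lowest Cry1 at 3.20 and the third lowest Clock at 4.62, with Dbp at 5.57 and Per3 at 4.65. Its Nr1d1, at 6.79, was also the third lowest. Its Nr1d2, at 6.41, was the 13th from the lowest, below the median, although Nr1d2 fell with Bmal1 over all animals. The animal with the highest Dbp, at 6.72, had Tef at 8.11 and Per3 at 5.15, each the third highest, and Cry1 at 3.30, the fourth from the bottom.

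Correlations were then computed for all 45 pairs of members and the 10 pairs with Bmal1. A pair was called where the slope passed over the whole table in both fits, with each of its genes as predictor. Of the 45 pairs, 22 were called, 19 positive and 3 negative. The share of all gene pairs that pass in both fits was not computed, so the shares given next are for single fits. The background differs between predictors: the share of all genes called was 3.1% on Dbp, 4.23% on Tef, 4.81% on Nr1d1, 10.3% on Nr1d2, 2.48% on Per1, 0.26% on Per2, 2.43% on Per3, 0.156% on Cry1, 0.335% on Cry2 and 28.4% on Clock. Of its 9 pairs, Dbp had 7 called, Nr1d2, Per2, Per3 and Cry2 had 6 each, Tef 5, Per1 4, Nr1d1 2, and Cry1 and Clock 1 each. Of the 22 called pairs, 13 were called under each of the 9 other settings tried.

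A set of 6 genes, Dbp, Tef, Nr1d2, Per2, Per3 and Cry2, was positively correlated in all of its pairs. It was picked out after the correlations were seen. All 15 of its pairs were called and positive, with r between 0.39 and 0.73. With the title-number block as covariate, the calls of Dbp with Per2 (adjusted p = 0.0693), Dbp with Cry2 (adjusted p = 0.173) and Nr1d2 with Cry2 (adjusted p = 0.077) were lost. With that covariate the slope of Per2 on Dbp went from 0.39 to 0.38 and that of Cry2 on Dbp from 0.11 to 0.09. The call of Dbp with Per2 was also lost without the 2 most extreme animals (adjusted p = 0.194) and on ranks (adjusted p = 0.0707). The call of Nr1d2 with Cry2 was also lost with marker scores (adjusted p = 0.0503). Within single blocks, the lowest r was -0.18 for Dbp with Cry2, -0.09 for Dbp with Nr1d2 and -0.01 for Dbp with Per2. The closest pair was Dbp and Per3, an output factor and a repressor (r = 0.73, rho = 0.69, each with a permutation p of 1e-05, the smallest that 100000 resamples can give; adjusted p = 5.27e-13). Without the 2 animals farthest from the median of Dbp, r was 0.72. Tef and Nr1d2, both narrow in spread, had r = 0.65 and rho = 0.68 (permutation p 1e-05 for both; adjusted p = 1.47e-08). Leaving out the 2 most extreme Tef animals gave r = 0.62. Per3 had r = 0.64 with Tef, 0.64 with Nr1d2, 0.61 with Cry2 and 0.60 with Per2.

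Per1 joined this set in part. With Per2 it had r = 0.54 and rho = 0.57 (permutation p 1e-05 for both; adjusted p = 2.5e-05), and r ran from 0.35 to 0.63 within the title-number blocks and was 0.53 without the 2 most extreme Per1 animals. It was also called with Nr1d2 (r = 0.39) and Cry2 (r = 0.39), and both calls were lost with the title-number block as covariate (adjusted p = 0.122 and 0.121). The call with Cry2 was lost under 4 of the 9 other settings. With Dbp it had r = 0.14 and rho = 0.19 (permutation p = 0.196 and 0.0643; adjusted p = 0.656). With Per3 it had r = 0.27 and with Tef r = 0.29, neither called. With 3 principal components as covariates all 3 of these pairs were called: the slope of Per1 on Dbp went from 0.13 to 0.51 (adjusted p = 0.000641), that of Per1 on Tef from 0.28 to 0.46 (adjusted p = 0.000284) and that of Per3 on Per1 from 0.14 to 0.28 (adjusted p = 5.6e-05). Clock was called with Per1 and Per2 under that setting as well.

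Cry1 and Clock shared the side of Bmal1 but were less tied to the other members. Cry1 had r = 0.48 with Bmal1 and -0.45 with Dbp, its only called pair among members (rho = -0.42; adjusted p = 0.0105), which was lost with the title-number block as covariate (adjusted p = 0.067). Clock had r = 0.48 with Bmal1 and -0.34 with Per3, its only called pair, which was lost under 6 of the 9 other settings. Cry1 and Cry2, the paralogous repressors, had r = -0.16 (adjusted p = 0.608). Nr1d1 and Nr1d2, also paralogues, had r = -0.05 (adjusted p = 0.845). Among the period genes, Per2 was called with both Per1 and Per3, while Per1 and Per3 were not called together.

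**Figure D3:**
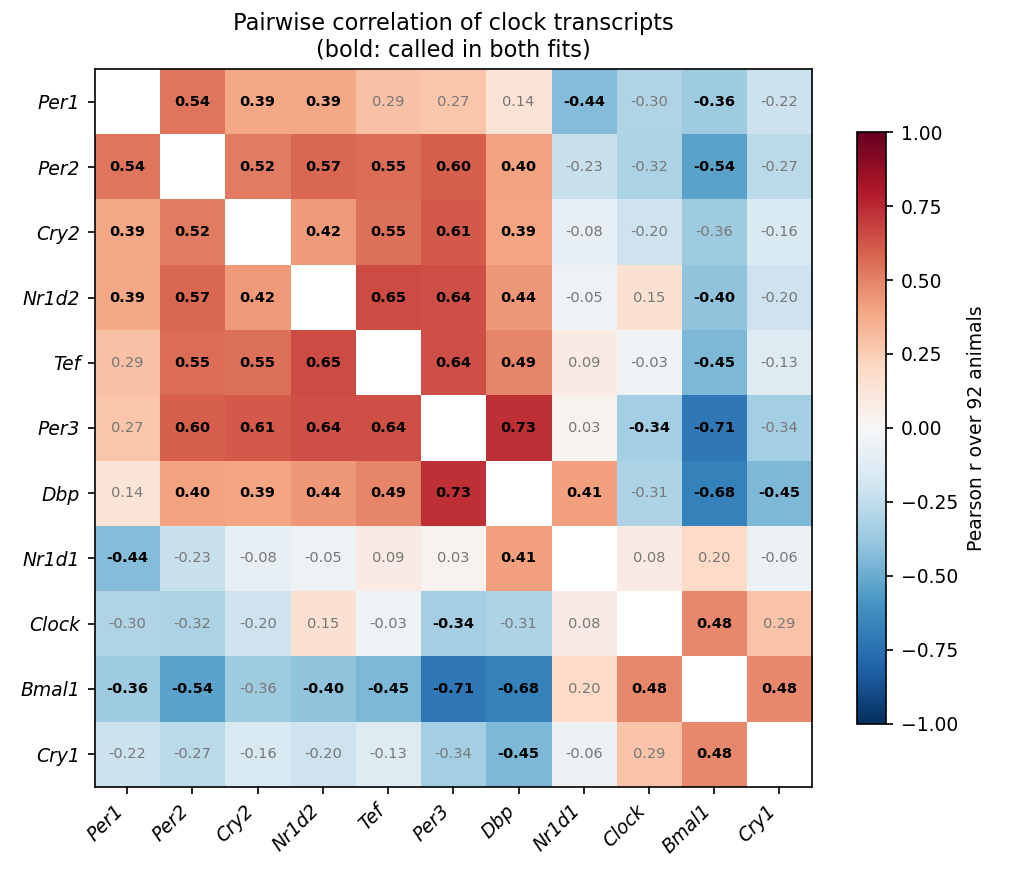
Pearson r over 92 animals for each pair of the 10 members and Bmal1, red for positive and blue for negative; bold values were called in both fits. The red block of 6 genes has r of 0.39 to 0.73, and the row of Nr1d1 has 2 bold values, 0.41 with Dbp and -0.44 with Per1.

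Nr1d1 stood aside from this opposition. It was called with 2 members only. With Dbp it had r = 0.41 and rho = 0.36 (permutation p = 4e-05 and 0.00051; adjusted p = 0.00413), and r ran from -0.09 to 0.62 within the title-number blocks, positive in 4 of 5. With Per1 it had r = -0.44 and rho = -0.37 (permutation p = 1e-05 and 0.00021; adjusted p = 0.00187), with block values from -0.78 to 0.03, negative in 4 of 5. Without the 2 animals farthest from the median of Dbp, r of Nr1d1 with Dbp was 0.42. Without the 2 farthest from the median of Nr1d1, r with Per1 was -0.36. Both calls were lost with the first 3 principal components of the table as covariates and with 7 marker scores as covariates. The animal lowest in Nr1d1, at 5.51, had Per1 at 5.74, the fifth highest, and Dbp at 2.77, the third lowest. Leaving it out ended neither call.

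With Bmal1 and Dbp in 1 model, Nr1d1 followed both upwards. At a given Bmal1 level it rose with Dbp by 0.39 ± 0.04 per SD (adjusted p = 3.07e-14), and at a given Dbp level it rose with Bmal1 by 0.34 ± 0.04 (adjusted p = 2.78e-11). Bmal1 alone accounted for 3.85% of the variance of Nr1d1 and Dbp alone for 16.9%, while both together accounted for 58.3%. The Dbp coefficient of Nr1d1 had the smallest p of the 13439 genes tested, and it was positive in 5 of 5 blocks, from 0.17 to 0.66. Without the lowest animal it was 0.33 (adjusted p = 1.22e-13), and it was called in every other setting tried. A model of the same form called 3.79% of all genes on Dbp beside Bmal1.

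Of the other 8 members in that model, 1 was called on Dbp. Per3 rose with Dbp by 0.24 ± 0.05 (adjusted p = 0.000583) and fell with Bmal1, at a slope of -0.21 ± 0.05 (adjusted p = 0.00119). Both predictors together accounted for 62.2% of its variance. Per3's call on Bmal1 was lost on ranks (adjusted p = 0.0626). Its call on Dbp was lost with 3 principal components (adjusted p = 0.474), with marker scores (adjusted p = 0.204) and also on ranks (adjusted p = 0.061). Tef, at 0.07 ± 0.03 on Dbp (adjusted p = 0.0968), was called without the 2 animals farthest from the median (adjusted p = 0.0402). For Per2 and Clock the Bmal1 coefficient was called and the Dbp coefficient was not: Per2 had -0.47 ± 0.11 on Bmal1 and 0.07 ± 0.11 on Dbp, and Clock had 0.13 ± 0.03 and 0.01 ± 0.03. Clock's call on Bmal1 was lost with 3 principal components (adjusted p = 0.219) and with marker scores (adjusted p = 0.074). With 3 principal components the Dbp coefficient of Per2 was 0.33, still not called (adjusted p = 0.513). Under that setting the Bmal1 coefficients of Tef (-0.13, adjusted p = 0.000559) and Nr1d2 (-0.13, adjusted p = 0.0225) were called. Per1 had -0.46 ± 0.12 on Bmal1 (adjusted p = 0.0105) and -0.18 ± 0.12 on Dbp (adjusted p = 0.459). Its Bmal1 call was lost with the title-number block (adjusted p = 0.0812), principal components (adjusted p = 0.313) and marker scores (adjusted p = 0.503). Its Dbp coefficient, not called in any setting, turned to 0.30 with principal components and 0.01 with marker scores.

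**Figure D4:**
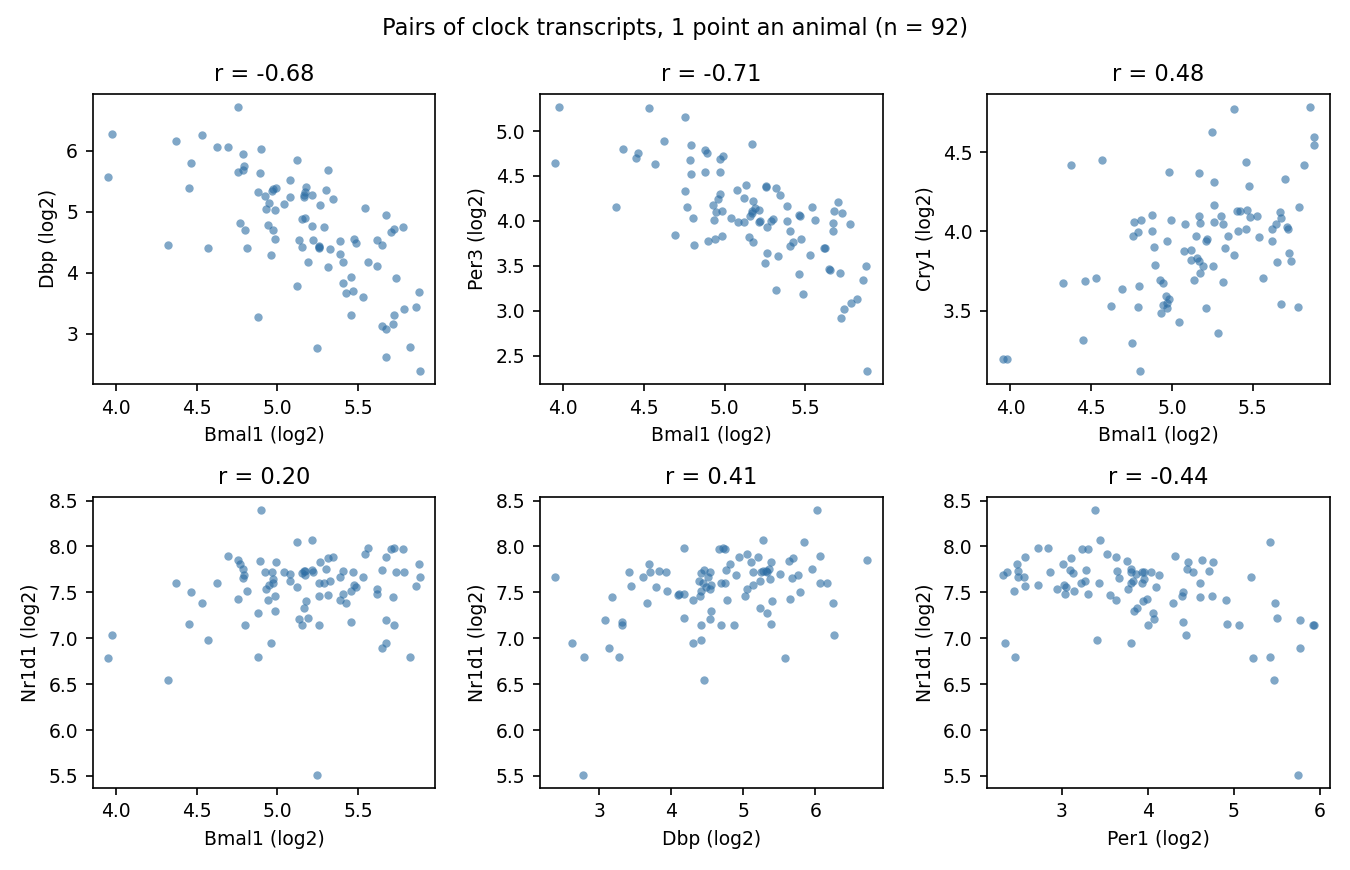
Log2 levels of 6 pairs of clock transcripts, 1 point an animal (n = 92), with Pearson r above each panel. Dbp and Per3 go down as Bmal1 goes up, Cry1 goes up, and Nr1d1 has r of 0.20 with Bmal1, 0.41 with Dbp and -0.44 with Per1, with 1 animal far below the rest.

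Principal components of the 10 standardised members describe the same relations without a test. The first held 42.2% of their variance, the second 16.7% and the third 13.6%. In the plane of the first 2, each gene has an angle. Nr1d2 at 359.6 degrees, Tef at 9.2, Per3 at 11.6, Cry2 at 352.2 and Per2 at 340.9 lay close together. Dbp lay at 37.1 degrees and Per1 at 311.5, on either side of that bundle, and Nr1d1 lay at 92.6. Bmal1, projected afterwards, lay at 179.6 degrees, between Clock at 160.7 and Cry1 at 201.6. Clock lay mostly outside the plane, with r = 0.80 to the third component. These angles order correlations between animals and are not hours of the day.

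**Figure D5:**
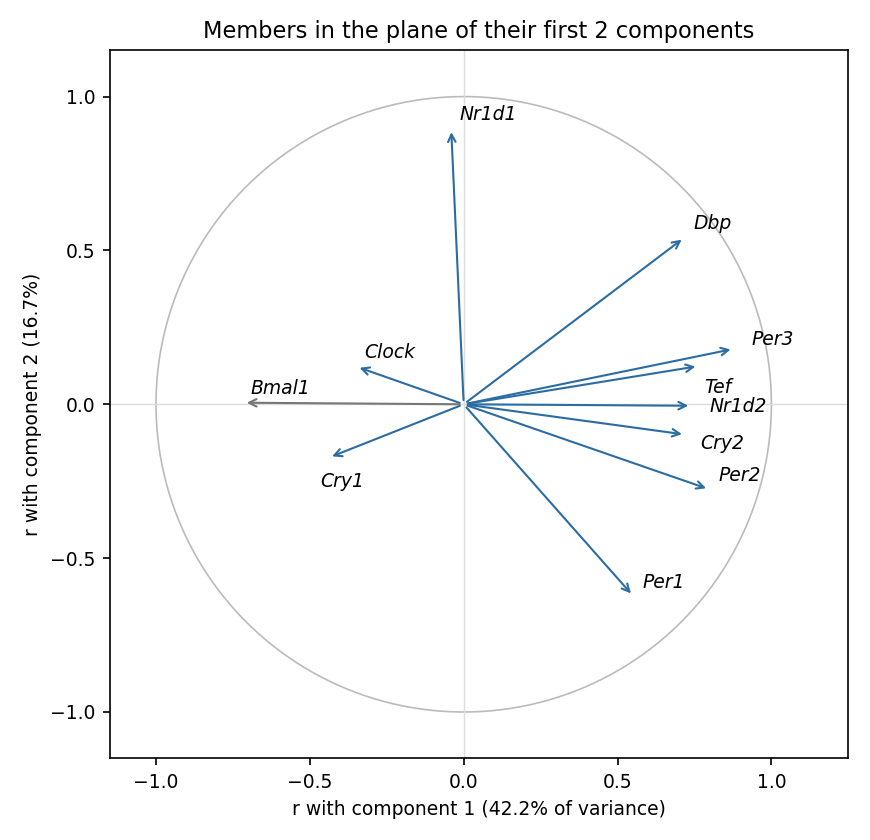
Correlation of each member (blue) and of Bmal1 (grey, projected) with the first 2 principal components of the members over 92 animals; an arrow that reaches the circle lies wholly in the plane. Nr1d1 points upwards at 92.6 degrees, at right angles to the line between Bmal1 and the bundle around Per3.

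The other genes of the loop followed the same sides. Of 10 tested, 2 rose with Bmal1 and 3 fell, beside 4.22% and 2.72% of all genes. Nfil3, the repressor at D-boxes and a REV-ERB target, rose by 0.52 ± 0.06 (adjusted p = 1.42e-09), and Npas2, a paralogue of Clock, rose by 0.32 ± 0.06 (adjusted p = 4.77e-05). Ciart, a repressor of CLOCK and BMAL1, fell at a slope of -0.44 ± 0.07 (adjusted p = 3.66e-06). Bhlhe40 and Bhlhe41, E-box repressors also known as Dec1 and Dec2, fell at slopes of -0.19 ± 0.04 (adjusted p = 0.000195) and -0.14 ± 0.04 (adjusted p = 0.0289). Rora and Rorb, which encode receptors that activate ROREs, had slopes of 0.04 and -0.05. Hlf, the third PAR bZIP factor, had 0.05 and Bmal2 0.04, and none of these 4 was called. Hlf rose with Tef by 0.25 (adjusted p = 0.000673), with Nr1d1 by 0.18 (adjusted p = 0.0305) and with Nr1d2 by 0.16 (adjusted p = 0.0286).

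Of 17 genes whose products modify clock proteins or act as their cofactors, 2 fell with Bmal1, where 2.72% of all genes fell and 6.94% were called, so the list as a whole gives no result: Usp2, a deubiquitinase and known clock output, at -0.16 ± 0.03, and Timeless at -0.26 ± 0.06. The kinase genes Csnk1d and Csnk1e had slopes of 0.01 and 0.03 and were not called. Of 20 known clock outputs of muscle, 6 rose and 1 fell, beside 4.22% and 2.72% of all genes. The others were not called, and the median slope of the 20 was 0.02. Pdk4, which restrains glucose oxidation, rose by 0.33 ± 0.09, Ucp3 by 0.20 ± 0.06, Dyrk2 by 0.20 ± 0.03, Lpin1 by 0.17 ± 0.03, Leo1 by 0.11 ± 0.02 and Vegfa by 0.07 ± 0.02. Tcap, a sarcomere protein gene, fell at -0.12 ± 0.03.

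Outside the members, the genes most like each of them over the 92 animals were named by Pearson r among all genes with a mean of at least 1 log2 unit. The other members were left out of this ranking, and Bmal1 was kept in. For Dbp these were Bhlhe40 (r = 0.78), Ciart (r = 0.65) and Bhlhe41 (r = 0.58), and the most opposite were Nfil3 (r = -0.74), Bmal1 (r = -0.68) and Pdk4 (r = -0.60). Coq10b, which encodes a coenzyme Q binding protein, headed the non-member lists of Per2 (r = 0.70), Per3 (r = 0.69) and Nr1d2 (r = 0.64). Usp2 came next for Per2 (r = 0.69). Ciart headed that of Cry2 (r = 0.61), and Npas2 was among the 3 most opposite genes of Tef, Nr1d2, Per2, Per3 and Cry2, with r from -0.47 for Cry2 to -0.63 for Per2. Among these non-members Tef was closest to Stk35 (r = 0.60) and Herc1 (r = 0.59). Cry1 was closest to Ccdc117 (r = 0.49) and then Bmal1.

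Per1, Nr1d1 and Clock had neighbours of other kinds. Per1 was closest to Tob2 (r = 0.81), Arrdc2 (r = 0.80) and Ddit4 (r = 0.73), the last a stress and glucocorticoid target, and most opposite to Kdr (r = -0.59), the endothelial VEGF receptor. Nr1d1 was closest to the magnesium transporter gene Slc41a3 (r = 0.55) and most opposite to the metallothionein gene Mt2 (r = -0.60), then Ddit4 (r = -0.56, rho = -0.32) and Rhob (r = -0.55, rho = -0.42). Without the animal lowest in Nr1d1, r was 0.53 for Slc41a3, -0.58 for Mt2, -0.42 for Ddit4 and -0.37 for Rhob. Clock was closest to Kat6a, Arhgap5 and Atad2b (each r = 0.75) and most opposite to the ribosomal protein genes Rpl27 (r = -0.67) and Rpl13 (r = -0.66). Clock also had r = -0.62 with the second principal component of the whole table, which held 4.83% of its variance, while Dbp had r = -0.59 and Nr1d1 r = -0.50 with the third, which held 3.95%. The part of these components in the results was not tested beyond their use as covariates.

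Scores of 11 gene lists, each the mean of its standardised genes, were set beside the members. Over the 110 fits of a member on a score, 13 were called and 26 had an unadjusted p under 0.05. Over all genes the called share ran from 0.201% on the blood score to 23.4% on the fast-fibre score, and the count of 13 is not read as a result about the members. The glucocorticoid score, on which 7.68% of all genes were called, went with 4 members. Per1 rose with it by 0.58 ± 0.08 (adjusted p = 1.36e-08), while Dbp at -0.44 ± 0.08 (adjusted p = 8.39e-05), Nr1d1 at -0.24 ± 0.03 (adjusted p = 1.67e-08) and Per3 at -0.16 ± 0.05 (adjusted p = 0.0418) fell. With 3 principal components as covariates, Per1's call stayed (adjusted p = 0.000183) and those of Dbp, Nr1d1 and Per3 were lost. Without the animal lowest in Nr1d1, the slope of Nr1d1 was -0.17 ± 0.03 (adjusted p = 9.27e-06) and Per3's call was lost (adjusted p = 0.071), as it was with sample medians subtracted (adjusted p = 0.0637). Per1 also rose with the immediate early score by 0.43 ± 0.09 (adjusted p = 0.000851), on which 2.03% of all genes were called, and this call was lost with principal components (adjusted p = 0.0896).

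The heat shock score called 4.6% of all genes. Cry1 rose with it by 0.13 ± 0.03, and Dbp at -0.36 ± 0.09 and Per3 at -0.17 ± 0.05 fell. The calls of Dbp and Per3 were lost with the title-number block as covariate (adjusted p = 0.0597 and 0.107) and with principal components (adjusted p = 0.64 and 0.421). Bmal1 itself rose with it by 0.15 ± 0.04. In the fit on Bmal1, 4.22% of all genes rose and 2.72% fell. There, 5 of 10 heat shock genes rose, from Hspa1a at 0.74 ± 0.20 to Hsph1 at 0.15 ± 0.04. Of 11 glucocorticoid targets, 3 rose, Fkbp5 at 0.26 ± 0.07, Cdkn1a at 0.23 ± 0.07 and Zbtb16 at 0.20 ± 0.05. The median slope of the 11 was 0.01, and Bmal1 was not called on the glucocorticoid score (0.06 ± 0.04, adjusted p = 0.512). Of 13 immediate early genes, Nr4a3 rose with Bmal1 at 0.54 ± 0.16, and Egr1 at -0.36 ± 0.11 and Ier2 at -0.18 ± 0.05 fell. Pim1, a kinase gene outside the lists, rose at 0.35 ± 0.05, and Auts2 at 0.33 ± 0.04.

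Markers of other cells moved with few members. On the endothelial score (9.53% of all genes called), Nr1d1 rose by 0.12 ± 0.04 (adjusted p = 0.0265) and Per1 fell at -0.38 ± 0.09 (adjusted p = 0.00236). The summed level of the 8 endothelial markers ran from 176 to 400 on the linear scale over the animals. Nr1d1 rose with the Schwann cell score by 0.14 ± 0.04 (adjusted p = 0.0193; 3.11% of all genes called), whose 7 markers summed to 34.2 to 165. Nr1d1 fell with the macrophage score at -0.10 ± 0.04 (adjusted p = 0.0455), a score on which 22% of all genes were called. In the fit on Bmal1, 3 of 10 macrophage markers fell, beside 2.72% of all genes. Bmal1 itself fell with the macrophage score at -0.12 ± 0.04 (adjusted p = 0.0209), and the median slope of the 10 markers on Bmal1 was -0.18. The 3 calls of Nr1d1 on cell scores were lost with the title-number block as covariate (adjusted p = 0.0812, 0.059 and 0.0526 in the order given), and that of Per1 with principal components (adjusted p = 0.258). All 3 of Nr1d1 were lost with principal components too (adjusted p = 0.885, 0.526 and 0.628), and the endothelial and Schwann cell calls on ranks (adjusted p = 0.177 and 0.0838). Without the animal lowest in Nr1d1, the 3 calls stayed, with slopes of 0.10, 0.12 and -0.09. Clock fell with the fast-fibre score at -0.09 ± 0.03 (adjusted p = 0.00504), on which 23.4% of all genes were called. No member was called by limma on the slow-fibre (0.462% of all genes), adipocyte (3.85%), fibroblast (21%) or blood (0.201%) scores, where 1 fit, of Cry1 on the fibroblast score, had an unadjusted p under 0.05. The part of other cells in the members' levels was not tested beyond these fits.

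The study concerns ceramides in muscle, and the 5 ceramide synthase genes measured were therefore read in the fits on Bmal1 and the 10 members. Of the 55 slopes, 1 was called and 10 had an unadjusted p under 0.05. Over all genes the called share ran from 0.156% on Cry1 to 28.4% on Clock and was 4.81% on Nr1d1, and the single call is no result about the 5 genes as a group. Cers1, the synthase most typical of muscle, rose with Nr1d1 by 0.13 ± 0.03 (adjusted p = 0.00582), and this call was lost with 3 principal components as covariates. Without the animal lowest in Nr1d1 the slope was 0.12 (adjusted p = 0.00718).

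The sample titles carry numbers that fall into 5 runs of 33, 14, 21, 11 and 13 animals, separated by gaps of over 30, and no label explains them. Of the 10 members, 0 passed an adjusted p of 0.05 between these blocks in limma, against 0.0149% of all genes. At an unadjusted p under 0.05, however, 6 of the 10 members differed, beside 8.33% of all genes: Per1 (p = 0.00146), Per3 (p = 0.00194), Dbp (p = 0.00227), Cry2 (p = 0.00243), Per2 (p = 0.0153) and Clock (p = 0.0198). Bmal1 had p = 0.00344. Block means of Dbp ran from 4.14 ± 1.07 (SD, n = 14) in the second run to 5.14 ± 0.64 (n = 33) in the first, and those of Bmal1 were 5.42 ± 0.32 and 5.02 ± 0.41 in the same runs. Within the runs, r of Dbp with Bmal1 kept its sign: it was -0.68 over all animals and ran from -0.91 to -0.27 within them, and r of Per3 with Bmal1 was -0.71 and ran from -0.89 to -0.42. The weaker relations varied more, and r with Bmal1 reached 0.13 in 1 run for Nr1d2 and -0.02 for Cry2. For Nr1d1, r with Bmal1 ran from -0.35 to 0.62 and was positive in 3 of 5 runs. Of the 22 called member pairs, 16 had the same sign in all 5 runs.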

How the data were processed

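Quadriceps RNA from 92 chow-fed DOz mice was sequenced after KAPA mRNA HyperPrep library preparation, per the labels' protocols. Per the submitters' processing notes, bcl2fastq, MultiQC, kallisto 0.50.1 and edgeR were used with build mm10. The deposited values are log2 expression values, 1 per gene and animal; their linear sums lie near 1006085, the median, as per-million values would, and the exact normalization and prior are not given in the sources used here. Read depth is therefore unknown. Of 13456 lines, 15 repeated lines were removed, and no low-value filter was applied.

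Every gene was fitted with limma 3.58.1 (R 4.3.3; empirical Bayes with trend) on standardised predictors, with Benjamini-Hochberg adjustment over all genes and a threshold of 0.05. The fits were tested on simulated data. Permutation tests were two-sided with 100000 resamples (numpy 2.4.6), with ranks from scipy 1.17.1. Motifs were searched in RefSeq promoter windows of GRCm38.p6, and positions are from GENCODE on mm10.

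The members and gene lists were chosen with earlier results of these data known. Named genes were the members, Bmal1, all other listed loop genes, list genes called on Bmal1, up to 8 a list, the 3 non-member genes most like and most opposite to each member, and the 8 steepest other genes each way, of which a part is printed; some named genes are not reported here. Alternatives used the title-number block, 3 principal components of the table, 7 marker scores, a pseudocount of 1, a mean of at least 1, median centring, ranks, and the leaving out of 2 extreme animals. A fit without the animal lowest in Nr1d1 was added after seeing the data.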

Additional observations from a re-analysis of the deposited data

How the results depend on the processing

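No called slope on Bmal1 and no called member pair changed direction under any setting tried. Pairs that were not called did: with 3 principal components Nr1d1 on Tef went to -0.0453, Per3 on Nr1d1 to -0.157 and Clock on Nr1d2 to -0.0132; with the title-number block Clock on Tef went to 0.0059 and Nr1d2 on Nr1d1 to 0.000501; with 7 marker scores Per3 on Nr1d1 went to -0.029; without the 2 animals farthest from the median Per3 on Nr1d1 went to -0.0141 and Cry1 on Nr1d1 to 0.0162; and without the animal lowest in Nr1d1 these last 2 went to -0.0163 and 0.0233. The Dbp coefficient of Per1 beside Bmal1 changed sign under 2 of 9 settings. The count of all genes called on Bmal1 depended on the setting: 933 became 176 with 3 principal components as covariates, 424 with 7 marker scores, 293 without the 2 animals farthest from the median and 536 on ranks. Members called on Dbp beside Bmal1 went from 2 to 1 with principal components, 1 with marker scores and 1 on ranks, each time leaving Nr1d1, and to 3 without the 2 animals farthest from the median, where Tef was added. Member calls on list scores went from 13 to 8 with the title-number block and 7 with principal components, of which 8 and 3 were among the 13. The ceramide synthase call went from 1 to 0 with principal components, where 9 of the 55 slopes had an unadjusted p under 0.05. The cause of these changes was not tested. Of the 9 members called on Bmal1, 6 kept the call under all 9 settings. No paired analysis was possible because all animals form 1 group. With depth unknown, counting error at the low end, as in Per2, could not be set against the spread between animals.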
